A study of Mus musculus with 8 samples.

Results

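Livers of mice given a medium dose of Diwu Yanggan capsules (DWYG) after a chemical liver carcinogenesis protocol were set against livers of control mice, to measure how far their RNA still stood from that of control liver at the end of the experiment. All genes with at least 1 FPKM (fragments scaled to transcript length and to the mapped fragments of the library) in at least 2 of the 8 libraries were compared, which kept 11606 of the 17164 genes in the table. The comparison rests on 2 DWYG-M libraries and 2 control libraries, each from the liver of 1 mouse.

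The mice were C57BL/6 males, 24 in 4 groups of 6, killed at 22 weeks of age, and 2 randomly chosen livers a group were sequenced. DWYG-M mice carried the full carcinogen protocol: an intraperitoneal dose of diethylnitrosamine (DEN, 0.67%) at 2 weeks of age and intraperitoneal carbon tetrachloride (CCl4, 20% in olive oil) 2 times a week from the age of 8 weeks. From 17 weeks they also received DWYG, a herbal preparation, at 1 time the clinical equivalent dose. DWYG-H mice had the same agents with 2 times that dose, and model mice had DEN and CCl4 without DWYG. Control mice had saline in place of DEN, with no CCl4, oil or DWYG injection or feeding stated for them. The contrast of DWYG-M with control therefore sums DEN, CCl4 and DWYG, with any oil, injection or feeding that control mice did not share. The labels do not say whether a sequenced piece of liver held a tumour nodule.

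DEN is activated by hepatocyte cytochrome P450 enzymes to a DNA-alkylating species, and CCl4 injures pericentral hepatocytes and, on repetition, drives scarring. Liver carcinogenesis in rodents commonly brings back fetal liver genes, and injured male liver often loses its male pattern of hepatic gene expression, which pulsed growth hormone maintains through STAT5. YAP, named in the study's title, is the transcriptional coactivator held in check by the Hippo kinases, and it acts through TEAD DNA-binding proteins. Because RNA was taken from liver in bulk, fewer cells of a type and less RNA per cell cannot be told apart in any value given here.

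Counts per library lay between 17345627 and 19191382. The 2 DWYG-M libraries held 18493335 and 18097161 counts, and the 2 control libraries 18149462 and 17360719. Each library had its labelled tissue's markers: the summed TPM (length-scaled transcript abundance with the same total in each library) of Alb, Ttr, Apoa1 and Serpina1a was 115691 and 78641 in DWYG-M livers, and 69058 and 60205 in control livers. DWYG-M replicate 1 stood farther from control than replicate 2 on the first principal component (scores of -20.9 and 0, against 69.9 and 76.3 for the control libraries), which held 69.7% of the variance. Nothing in the labels says more of how the replicates differ. The p-values set a group difference against the spread between livers within groups, estimated from all 8 libraries, model and DWYG-H among them.

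Most genes called between DWYG-M and control liver were higher in DWYG-M liver. By edgeR's quasi-likelihood test with Benjamini-Hochberg adjustment over all genes tested, 575 genes (4.95% of 11606) had an adjusted p under 0.05, of which 505 (4.35%) were higher and 70 (0.603%) lower in DWYG-M livers. Of the called genes 523 differed at least 2-fold, 87.8% were higher, and 2227 genes had an unadjusted p under 0.05. The genes called higher were mostly scarce in control liver. Their median log2 fold change was 2.04, and 280 of the 505 stayed under 1 FPKM in both control libraries. Those 280 passed the 1 FPKM filter only through carcinogen-treated livers, and 0 of the 70 genes called lower were that scarce in control liver. The 87.8% is thus tied to that filter (84.3% with a filter at 5 FPKM). In 33 of the 505 both DWYG-M libraries were under 1 FPKM. Together the 505 made up 1.94% and 1.18% of TPM in DWYG-M livers, against 0.261% and 0.243% in control livers. The genes called lower included very abundant ones: their median was -1.87, and they made up 1.88% and 2.50% of TPM in DWYG-M livers, against 21.9% and 24% in control livers.

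The direction of many genes depended on the scale used. TPM has the same total in each library, and major urinary protein genes held 296278 and 293173 of it in control livers. They held 48446 and 76118 in DWYG-M livers, and their part in this dependence was not tested. FPKM and TPM values below do not carry the TMM scaling. TMM scaling of counts left the median gene at a log2 fold change of -0.01, while on TPM the median gene stood at 0.40, and limma on log2(TPM + 1) called 2767 higher and 53 lower genes (98.1% higher). Fold changes below are from the TMM-scaled counts, FPKM values are the authors' own, and "rose" and "fell" refer to edgeR's calls. Genes scarce in control liver could enter the test through the carcinogen-treated livers, so counts and medians of a list describe its members that passed the 1 FPKM filter. Each count of list members called is to be read beside the 4.35% of all genes tested called higher and the 0.603% called lower. In FPKM, 49.2% of the genes tested had both DWYG-M libraries above both control libraries and 7.98% had both below, so a gap between the groups in FPKM is common for any gene.

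**Figure D1:**
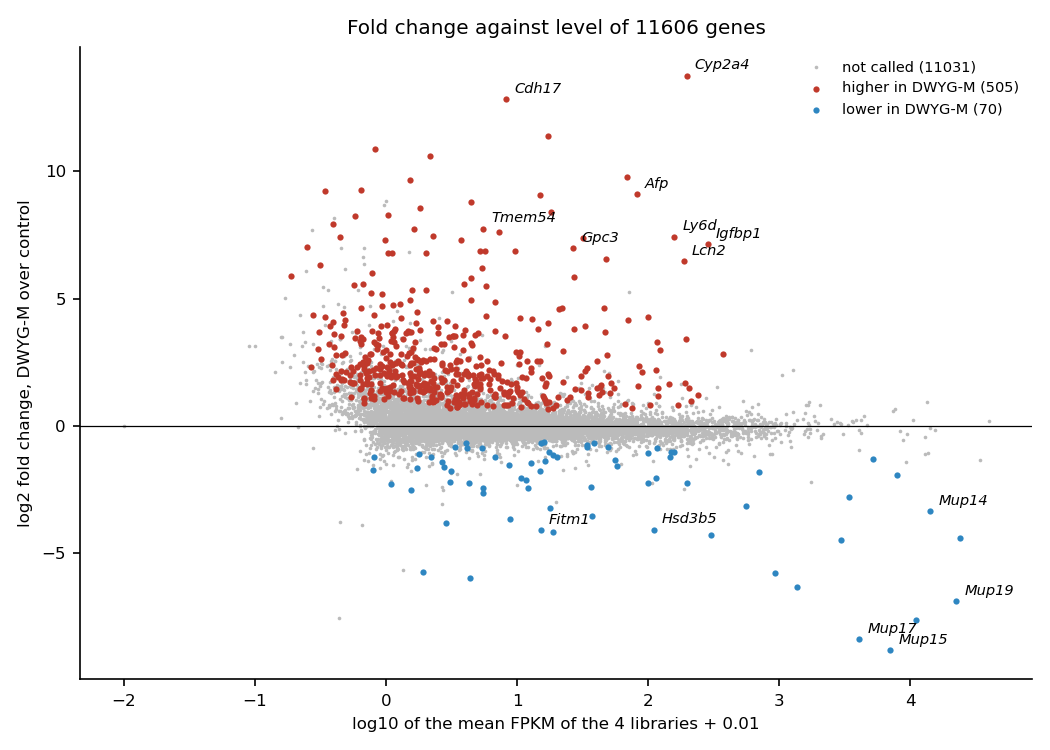
Log2 fold change of DWYG-M over control (vertical axis) against the log10 mean FPKM of the 4 libraries (horizontal axis) for 11606 genes; red points are the 505 called higher, blue points the 70 called lower and grey points the rest. The called gains spread over low and middle levels, while blue points at the far right include major urinary protein genes.

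The number of calls changed strongly when a library was left out. Without a DWYG-M or a control library that group keeps a single liver. A call lost there cannot tell fewer replicates from a dependence on that liver. Without control replicate 1 the calls came to 33 higher and 19 lower genes, and without control replicate 2 to 23 higher and 16 lower. Leaving out DWYG-M replicate 1 gave 163 higher and 21 lower genes, and leaving out DWYG-M replicate 2 gave 391 and 39. Without a model library the calls grew to 722 higher and 122 lower (replicate 1) or 687 and 130 (replicate 2), and without a DWYG-H library they came to 371 and 52 (replicate 1) or 391 and 50 (replicate 2). These 4 fits keep the DWYG-M and control libraries and leave out a library of another group. Across these 8 fits, 31 genes kept their call in every one, 17 higher and 14 lower. In the paragraphs that follow, "kept" means called in all 8 fits.

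**Figure D2:**
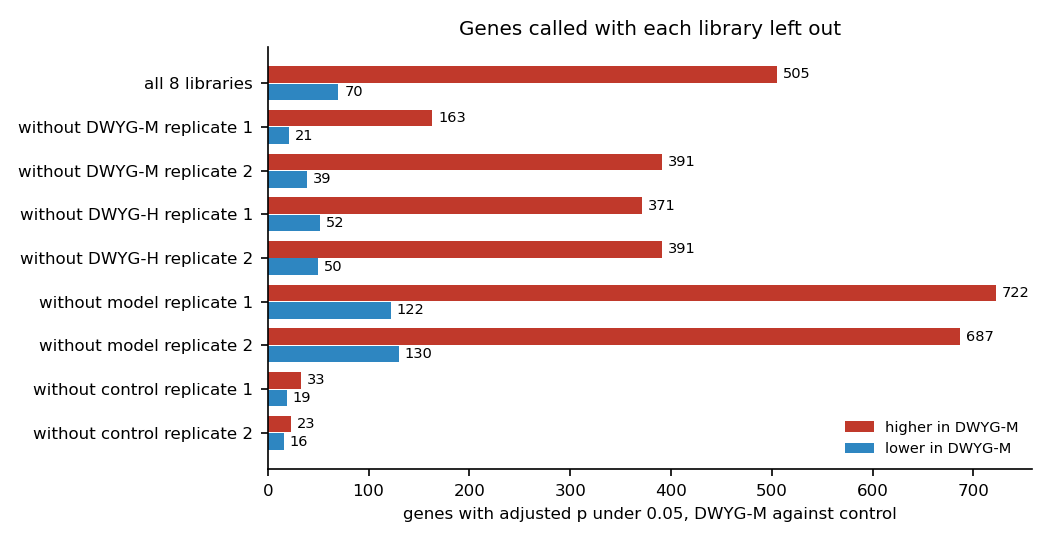
Number of genes called higher (red bars) and lower (blue bars) in DWYG-M against control, with all 8 libraries and with each library left out. The bars are shortest without a control library, at 33 and 19 or 23 and 16 genes, and longest without a model library.

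Gpc3 and Tmem54 were nearly silent in control liver and Mup15 was among its abundant transcripts. Gpc3 (gene ID 14734), a heparan sulfate proteoglycan that fetal liver and liver tumours make, had 67.9 and 38.2 FPKM in DWYG-M livers, 72.5 and 46.6 in DWYG-H, 105 and 127 in model, and 0.54 and 0.18 in control livers. Tmem54 (gene ID 66260), a transmembrane protein, had 14.1 and 7.94 FPKM in DWYG-M livers, 6.93 and 3.77 in DWYG-H, 13.2 and 16.7 in model, and 0 and 0.08 in control livers. Mup15 (gene ID 100039150), a major urinary protein, had 13.8 and 59.1 FPKM in DWYG-M livers, 26.2 and 30.6 in DWYG-H, 22.9 and 5.88 in model, and 11883 and 16274 in control livers. For each of these genes the 2 control libraries lay outside the range of the other 6. Gpc3 rose with a log2 fold change of 6.98 (SE 0.53, adjusted p = 0.00215) and Mup15 fell with one of -8.82 (SE 0.96, adjusted p = 0.00464), and both kept their call. Tmem54 rose (adjusted p = 0.00446), but control liver gave 1 read of it in all, so its ratio was 259.9 with a 95% counting interval of 46.3 to 10298, and without control replicate 1 its adjusted p was 0.0517.

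**Figure D3:**
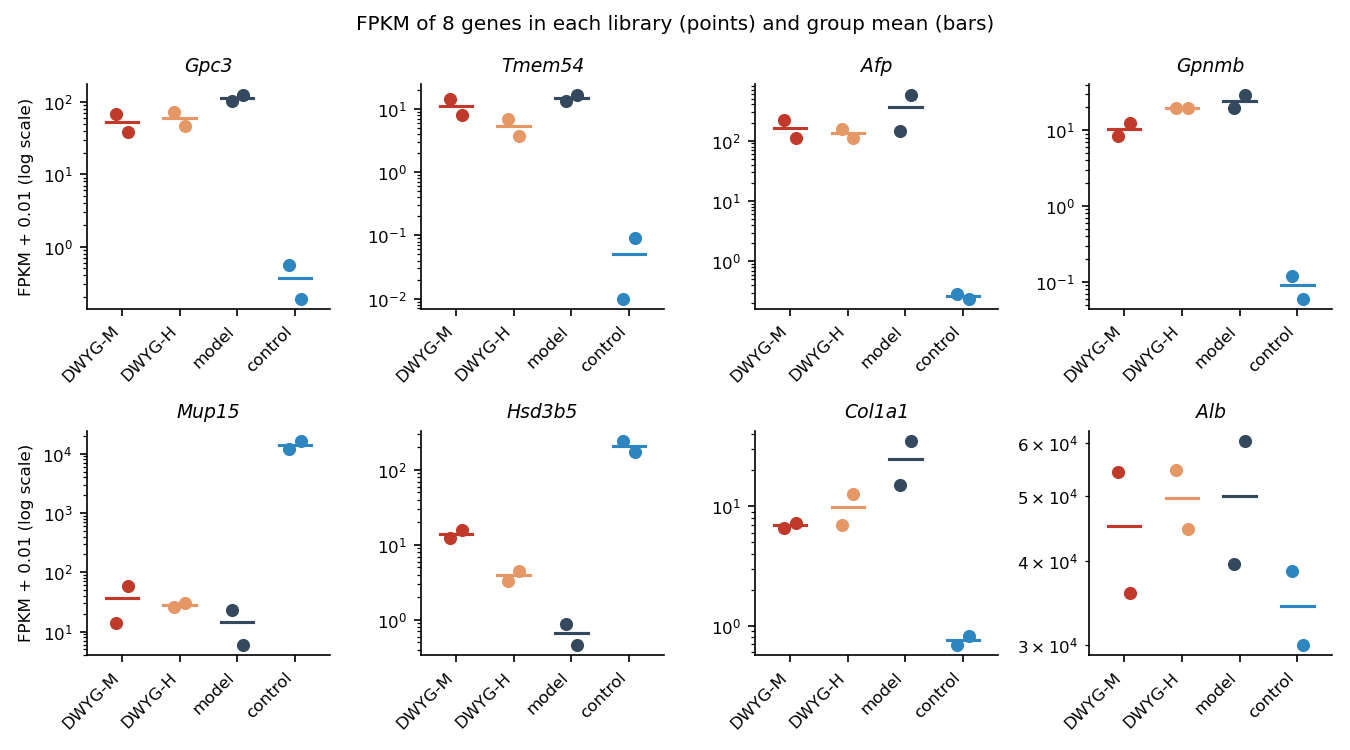
FPKM + 0.01 on log scales for Gpc3, Tmem54, Afp, Gpnmb, Mup15, Hsd3b5, Col1a1 and Alb; points are single libraries (2 a group) and bars are group means, in the order DWYG-M, DWYG-H, model, control. In Gpc3, Tmem54, Afp, Gpnmb and Col1a1 the control points lie lowest, in Mup15 and Hsd3b5 they lie highest, and in Alb the DWYG-M and control points overlap.

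The largest losses of RNA were in the major urinary protein (Mup) genes, a cluster on mouse chromosome 4 that encodes pheromone-binding proteins secreted by liver into urine, at high level in males. Mup genes took 2.09% and 3.50% of all counts in DWYG-M livers, 2.06% and 2.30% in DWYG-H, 1.76% and 0.563% in model, and 15.3% and 15.4% in control livers. Of the 20 tested, 16 fell and none rose, with a median log2 fold change of -3.92. Leaving out 1 library gave between 8 (control replicate 2) and 17 (either model replicate) called lower, with 10 without DWYG-M replicate 1 or control replicate 1. The 4 others had fold changes of -0.53 (Mup10), -1.05 (Mup20), -1.33 (Mup22) and -1.44 (Mup3) and did not pass the test.

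Levels differed widely between family members. Mup19 had 205 and 663 FPKM in DWYG-M livers, 182 and 285 in DWYG-H, 296 and 78.0 in model, and 43151 and 45286 in control livers. Mup20 had 10297 and 9433 FPKM in DWYG-M livers, 11474 and 8991 in DWYG-H, 10489 and 4142 in model, and 20780 and 14326 in control livers. Mup20, the male pheromone darcin, was thus among the most abundant Mup transcripts of DWYG-M liver, in which Mup19 stood lower by more than an order of magnitude. Mup17 fell by 8.39 (log2, SE 0.95), Mup11 by 7.61 (SE 0.90), Mup19 by 6.89 (SE 0.85) and Mup14 by 3.35 (SE 0.38), with adjusted p between 0.00482 and 0.00578, and all 4 kept their call. Mup7, at 1167 and 3885 FPKM in DWYG-M livers against 44759 and 46083 in control livers, fell by 4.39 (adjusted p = 0.0347, up to 0.182 without a single library, the call being lost without DWYG-M replicate 1, either control or either DWYG-H library). In 18 of the 20 Mup genes DWYG-M replicate 2 stood above replicate 1. Among all genes called lower, replicate 1 was farther from the control mean in 74.3%. Mup copies are near-identical, so the split of reads among them is uncertain, while the family total is less affected.

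Promoter windows are printed here because the Mup genes fell together and because the study's title names YAP, whose partners the TEADs bind the letters GGAATG, which on the opposite strand read CATTCC. The windows are RefSeq's on GRCm38.p6, 250 bases before to 50 after the start, whereas the authors used GRCm39. Capitals mark GGAATG on either strand and, in Tmem54, also the AP-1 letters TGANTCA and, overlapping them, the antioxidant response element core, TGACNNNGC. The windows are Mup15 at chr4:61439655-61439954 (minus strand), Mup11 at chr4:60662346-60662645 (minus strand) and Tmem54 at chr4:129105280-129105579 (plus strand, 1 of 2 listed starts).
Mup15: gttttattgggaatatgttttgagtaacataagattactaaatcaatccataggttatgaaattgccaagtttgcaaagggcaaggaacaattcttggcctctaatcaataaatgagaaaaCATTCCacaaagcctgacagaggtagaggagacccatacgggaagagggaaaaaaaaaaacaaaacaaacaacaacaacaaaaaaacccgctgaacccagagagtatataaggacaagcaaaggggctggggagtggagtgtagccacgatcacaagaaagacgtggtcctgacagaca
Mup11: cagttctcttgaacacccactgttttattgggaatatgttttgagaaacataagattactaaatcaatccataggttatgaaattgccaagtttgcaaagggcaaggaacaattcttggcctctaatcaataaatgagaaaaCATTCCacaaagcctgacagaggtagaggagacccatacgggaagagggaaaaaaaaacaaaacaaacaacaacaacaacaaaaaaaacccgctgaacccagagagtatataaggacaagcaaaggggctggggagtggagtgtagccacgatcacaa
Tmem54: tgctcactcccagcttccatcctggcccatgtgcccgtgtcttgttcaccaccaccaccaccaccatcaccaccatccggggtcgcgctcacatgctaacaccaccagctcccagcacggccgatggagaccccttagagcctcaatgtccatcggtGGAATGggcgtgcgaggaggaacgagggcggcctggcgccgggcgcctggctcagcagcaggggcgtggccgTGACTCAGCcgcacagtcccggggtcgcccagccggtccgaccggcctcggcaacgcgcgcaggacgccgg
Of the 13 tested Mup genes with a window, 12 held the hexamer, always as CATTCC, against 14.7% of all 32851 windows and 12.3% of the 11926 windows of tested genes. The 26 bases around it were the same in 8 of the 12, as shown first below, and the other 4 differed from it at single or few letters, as in Mup2 and Mup3.
Mup15 context: aatgagaaaaCATTCCacaaagcctg
Mup2 context: aatgagaaaaCATTCCacaaaccctg
Mup3 context: agtgaaaaaaCATTCCacaaagcctg
These copies of 1 family share their sequence. The match is in both Mup15, with a fold change of -8.82, and Mup10, with -0.53, and the split of reads among such copies is uncertain. Whether the match bears on either fold change was not tested. Among all windows of genes called lower the hexamer was in 20.5%, and in 10.4% once Mup genes were set aside. It was in 13.2% of the 485 windows of genes called higher. The STAT letters TTCNNNGAA were in 0 of the 13 Mup windows, against 8.30% of all windows, and such a match or its absence in a window describes the letters alone.

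Male-biased genes outside the Mup family fell as well, and female-biased genes rose. Of 27 male-biased genes tested, 12 fell and 1 rose (Gstp2, 1.30, adjusted p = 0.0396), with a median of -1.12. Gstp2 and its paralog Gstp1, given below, had opposite calls, and reads may be shared between them. Hsd3b5, a hydroxysteroid dehydrogenase of male liver, had 12.2 and 16 FPKM in DWYG-M livers, 3.34 and 4.49 in DWYG-H, 0.86 and 0.45 in model, and 241 and 171 in control livers. Its log2 fold change was -4.08 (SE 0.26, adjusted p = 0.00128) and the call was kept, with no overlap between any of the 4 groups. Ugt2b38, a glucuronosyltransferase, fell by 3.24 (SE 0.33) and Slc22a28, an organic anion transporter family member, by 2.45 (SE 0.23), and both kept their calls. Slco1a1, an organic anion and bile acid uptake carrier, had 39.3 and 39.3 FPKM in DWYG-M livers, 18.8 and 22.7 in DWYG-H, 13.0 and 4.36 in model, and 170.3 and 153 in control livers. Its fall of 2.25 (adjusted p = 0.0189) was lost without either DWYG-M or either control library, at up to 0.121. Gstp1, a glutathione transferase, fell by 1.31 (adjusted p = 0.017, up to 0.125 without one of the same 4 libraries). The count of male-biased genes called lower ranged over the 8 fits between 3 (without either control) and 14 (without either model library), with 4 and 5 without DWYG-M replicates 1 and 2.

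Of 27 female-biased genes 17 could be tested, some (such as Cyp2a4 and Cyp2b9) only through carcinogen-treated livers, so count and median lean towards gains. Of the 17, 8 rose and none fell, with a median of 2.26. Cyp2a4, a steroid hydroxylase, had 563 and 223 FPKM in DWYG-M livers, 431 and 329 in DWYG-H, 548 and 1074 in model, and 0.04 and 0 in control livers. Control liver gave 1 read of it against 14343 and 5587 in DWYG-M livers, a ratio of 16762 with a counting interval of 3008 to 662095, and the call (adjusted p = 0.00196) was kept. Cyp2b9 had 55.8 and 16.9 FPKM in DWYG-M livers, 58.7 and 37.3 in DWYG-H, 31.3 and 73.5 in model, and 0.14 and 0.04 in control livers. It rose by 8.38 (SE 1.04, adjusted p = 0.00602, up to 0.0786 without a control library). Prom1, a membrane glycoprotein used as a progenitor marker, rose by 4.96 (SE 0.50, adjusted p = 0.00438, 0.0517 without control replicate 2). Cyp2a4 and Cyp2b9 have close paralogs, so reads may be shared with them. Without a control library 2 (replicate 1) or 1 (replicate 2) of the female-biased genes were called. All livers were male by label, and the Y-linked genes Ddx3y, Eif2s3y, Kdm5d and Uty were expressed in every library, with Eif2s3y at 28.2 and 33.4 FPKM in DWYG-M livers and 38.8 and 28.4 in control livers.

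In the growth hormone and STAT5 list 1 of 20 genes tested was called higher, a share near the 4.35% of all genes tested that were called higher. Igfbp1, a binding protein for insulin-like growth factors that fasting and injury induce, had 974 and 160.2 FPKM in DWYG-M livers, 619 and 386 in DWYG-H, 997 and 812 in model, and 5.41 and 1.64 in control livers. It rose by 7.13 (SE 0.98, adjusted p = 0.00979, up to 0.0921 without a control library). Ghr, the growth hormone receptor, had 126 and 176 FPKM in DWYG-M livers against 221 and 204 in control livers (log2 fold change -0.74, adjusted p = 0.27). Igf1 (-0.51, adjusted p = 0.409) and Stat5b (0.20, adjusted p = 0.597) did not pass either.

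Fetal liver and tumour marker genes rose in their majority. Of 30 listed, 25 could be tested, some (such as Cdh17) only through carcinogen-treated livers, so count and median lean towards gains. By edgeR 17 of the 25 rose and none fell, with a median of 3.51, and DESeq2 called 19 higher and 1 lower. The count was 8 without control replicate 1 and 5 without control replicate 2, and 15 to 18 without any of the other 6 libraries. Afp, the fetal counterpart of albumin, had 217 and 111 FPKM in DWYG-M livers, 158 and 111 in DWYG-H, 143 and 579 in model, and 0.28 and 0.23 in control livers. Its log2 fold change was 9.09 (SE 0.96, adjusted p = 0.00464, up to 0.0635 without a control library). Tspan8, a tetraspanin of gut and tumour cells, had 118 and 71.6 FPKM in DWYG-M livers, 119.8 and 76.5 in DWYG-H, 106 and 150.3 in model, and 1.09 and 0.72 in control livers. It rose by 6.56 (SE 0.46, adjusted p = 0.00173) and kept its call. Cdh17, an intestinal cadherin, had 22.8 and 9.97 FPKM in DWYG-M livers, 20.0 and 12.8 in DWYG-H, 24.9 and 48.2 in model, and 0 in both control livers. With 0 control counts its level was at least 525-fold higher, set against 3 counts over the group, and its call (adjusted p = 0.00482) was kept.

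In each of these genes DWYG-M replicate 1 was above replicate 2, as it was in 17 of the 25 list members. Replicate 1 was also farther from the control mean in 73.7% of all genes called higher and in 61.2% of all genes tested. Akr1c18, a steroid-reducing aldo-keto reductase, had 196 and 79.2 FPKM in DWYG-M livers, 251 and 120.2 in DWYG-H, 159 and 302 in model, and 0.19 and 0.07 in control livers (log2 fold change 9.76, adjusted p = 0.00424, 0.0517 without control replicate 2). Ly6d, a small surface protein, had 474 and 155 FPKM in DWYG-M livers, 369 and 136 in DWYG-H, 347 and 794 in model, and 2.74 and 0.32 in control livers (7.43, adjusted p = 0.0102, up to 0.1 without a control library). Spink1, a trypsin inhibitor, reached 77.7 and 48.5 FPKM in DWYG-M livers with 1 control read, a ratio of 202 with a counting interval of 35.9 to 8005, and its adjusted p reached 0.0974 without a control library. The members without a call held the progenitor and duct genes Epcam (1.33, adjusted p = 0.0598), Krt19 (1.24, 0.245 adjusted) and Sox9 (0.09, 0.927 adjusted), and Glul (-1.22) was the lowest.

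Other strong gains lay outside the lists. Csn3, a casein of milk, had 54.0 and 14.4 FPKM in DWYG-M livers, 22.0 and 14.2 in DWYG-H, 24.4 and 51.5 in model, and 0 in both control livers, at least 191-fold higher. Klrb1b, a lectin-like receptor best known on natural killer cells, had 47.4 and 12.2 FPKM in DWYG-M livers, 35.3 and 24.5 in DWYG-H, 25.3 and 42.4 in model, and 0.03 and 0.07 in control livers, a ratio of 576 with a counting interval of 197 to 2793 on 3 control reads. The T and NK cell markers beside it were low: 6 of 16 could be tested, none was called by edgeR or DESeq2 (1 at an unadjusted p under 0.05), and their summed TPM was 45.9 and 30.8 in DWYG-M livers and 24.7 and 10.9 in control livers. Erich4 had 20.0 and 9.06 FPKM in DWYG-M livers against 0.1 and 0 in control livers. These 3 calls (adjusted p between 0.00491 and 0.0151) were lost without either control library, at up to 0.106.

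Yap1, which the study's title names, did not pass the test. It had 22.9 and 21.9 FPKM in DWYG-M livers, 21.9 and 22.0 in DWYG-H, 24 and 24.4 in model, and 22.0 and 21.5 in control livers. All 8 libraries lay between 21.5 and 24.4 FPKM. The DWYG-M against control log2 fold change of Yap1 was -0.17 (SE 0.14, adjusted p = 0.567), turning to 0.28 on TPM and 0.04 on FPKM. These are RNA levels, and YAP protein and its activity were not measured in these libraries. Wwtr1, which encodes the YAP paralog TAZ, had 7.88 and 7.99 FPKM in DWYG-M livers and 4.03 and 4.57 in control livers (0.67, adjusted p = 0.0702). Of 23 Hippo pathway genes tested 1 rose, the kinase Map4k4 (1.26, SE 0.21, adjusted p = 0.0166, up to 0.135 without DWYG-M replicate 1 or a control library), and the list's median was 0.05. That share equals the 4.35% of all genes tested that were called higher. Tead4 had a fold change of 3.07 from a level of 1.06 and 0.39 FPKM in DWYG-M livers against 0.08 and 0.07 in control livers, with an adjusted p of 0.078.

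Of 20 YAP/TAZ target genes tested 3 rose and none fell, with a median of 0.36. Ccdc80, a matrix protein, had 12.5 and 14.0 FPKM in DWYG-M livers, 15.2 and 12.3 in DWYG-H, 24 and 25.7 in model, and 3.32 and 3.55 in control livers (log2 fold change 1.73, adjusted p = 0.00479). Myof, a membrane repair protein, rose by 1.62 (adjusted p = 0.0094) and Fstl1, a secreted glycoprotein of stromal cells, by 1.77 (adjusted p = 0.0122). Leaving out either control liver ended all 3 calls (highest adjusted p 0.103), and Fstl1 was also lost without DWYG-M replicate 1. The canonical targets gave no call and no common direction. Ccn2 had 13.7 and 2.58 FPKM in DWYG-M livers against 0.72 and 3.44 in control livers (1.73, adjusted p = 0.316), and Ccn1 had 3.65 and 5.63 against 4.05 and 16.7 (-1.41, adjusted p = 0.259, 0.02 on the log2 scale without control replicate 2). Ankrd1 was at 1.14 and 1.27 FPKM in DWYG-M livers against 0.35 and 0.2 in control livers (1.91, adjusted p = 0.0819).

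Scar matrix genes rose broadly. Of 18 collagen chains tested 12 rose and none fell by edgeR (median 1.45), while DESeq2 called 15 higher and 1 lower. Of 29 matrix glycoproteins and remodelling enzymes 21 rose and none fell (median 1.66). Col1a1, a chain of fibrillar collagen I, had 6.57 and 7.28 FPKM in DWYG-M livers, 6.92 and 12.6 in DWYG-H, 15.1 and 34.9 in model, and 0.68 and 0.82 in control livers. Its log2 fold change was 2.99 (SE 0.49, adjusted p = 0.0165, up to 0.135 without DWYG-M replicate 1 or a control library). Col5a2, a minor fibrillar chain, had 2.59 and 3.06 FPKM in DWYG-M livers, 3.09 and 3.30 in DWYG-H, 6.62 and 7.76 in model, and 0.69 in both control livers (1.82, adjusted p = 0.00464). Col6a3, a microfibrillar chain, rose by 2.21 and the basement membrane chains Col4a5 and Col4a3 by 2.70 and 3.71 (adjusted p of 0.00438 to 0.00494). Without a control library the adjusted p reached 0.0622 for Col5a2, 0.0677 for Col6a3, 0.0517 for Col4a5 and 0.0721 for Col4a3. In all 5 named chains the DWYG-M libraries lay between control and model. Without control replicate 1 and 2 the count of collagens called higher was 1 and 0, and it was 8 and 7 without DWYG-M replicates 1 and 2. Without either model library 1 collagen was called lower.

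Among remodelling enzymes, Mmp12, the macrophage elastase, had 4.32 and 5.04 FPKM in DWYG-M livers, 9.87 and 13.4 in DWYG-H, 11.7 and 9.65 in model, and 0.19 and 0.32 in control livers. Mmp2, a gelatinase of stromal cells, had 4.95 and 7.22 FPKM in DWYG-M livers, 6.09 and 7.94 in DWYG-H, 12.5 and 11.5 in model, and 0.9 and 0.84 in control livers. Both kept their calls, with log2 fold changes of 3.66 (SE 0.29, adjusted p = 0.00254) and 2.59 (SE 0.24, adjusted p = 0.00382). Mmp7, an epithelial protease, had 4.29 and 3.59 FPKM in DWYG-M livers against 0.09 in both control livers, a ratio of 44.6 with a counting interval of 12 to 373 on 2 control reads, and its adjusted p reached 0.0682 without a control library. The proteoglycan Lum rose by 2.56 (SE 0.35, adjusted p = 0.00961, up to 0.094 without a control library). The count of this list was 2 without either control library, 11 and 12 without DWYG-M replicates 1 and 2, and 22 without either model library.

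Of 21 stellate cell and myofibroblast markers tested 3 rose (Vim 1.15, Pdgfra 1.58, Pdgfrb 1.73, adjusted p of 0.0103 to 0.0145, each lost without a control library), and the median was 0.35. Acta2, the actin of activated myofibroblasts, had 8.72 and 5.03 FPKM in DWYG-M livers, 5.37 and 6.02 in DWYG-H, 12.6 and 17.3 in model, and 2.85 and 2.46 in control livers (0.94, adjusted p = 0.199). Lrat, the retinol-storing enzyme of quiescent stellate cells, was at 6.61 and 6.16 FPKM against 3.12 and 5.22 in control livers (0.39, adjusted p = 0.458). In the TGF-beta list 5 of 19 rose, among them the latency binders Ltbp3 (2.75) and Ltbp2 (3.21), the ligand Tgfb3 (1.93) and the inhibin and activin chain Inhbb (3.49), at adjusted p of 0.00464 to 0.0119, all lost without either control library. Tgfb1 stood at 0.35 and was not called.

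Of 22 macrophage and scar-associated macrophage genes 13 rose and none fell (median 1.62), while of 14 Kupffer cell genes none rose and 2 fell (median -0.48, -0.01 on TPM). Gpnmb, a lysosomal membrane glycoprotein of lipid-laden macrophages, had 8.32 and 12.5 FPKM in DWYG-M livers, 19.9 and 19.7 in DWYG-H, 19.8 and 29.4 in model, and 0.11 and 0.05 in control livers. It rose by 6.86 (SE 0.45, adjusted p = 0.00128) and kept its call. Trem2, a lipid-sensing receptor, had 5.37 and 6.61 FPKM in DWYG-M livers, 8.63 and 6.69 in DWYG-H, 10.6 and 13.3 in model, and 0.36 and 0.53 in control livers (3.53, adjusted p = 0.00479, up to 0.0635 without a control library). The general macrophage genes Adgre1 (-0.03) and Csf1r (-0.20) did not pass, at 10.5 and 10.3 FPKM and 20.2 and 20.5 FPKM in DWYG-M livers, against 11.1 and 7.46 FPKM and 22.6 and 18.0 FPKM in control livers. Timd4, a receptor of resident Kupffer cells, had 1.99 and 1.38 FPKM in DWYG-M livers against 7.89 and 5.83 in control livers (-2.24, adjusted p = 0.0103), and the scavenger receptor Cd163 had 1.31 and 1.14 against 6.17 and 3.63 (-2.19, adjusted p = 0.023). Both calls were lost without DWYG-M replicate 1 or either control library, at up to 0.135, and Cd163 also without DWYG-M replicate 2. The macrophage count was 4 and 2 without control replicates 1 and 2, and 8 and 9 without DWYG-M replicates 1 and 2.

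Of 15 neutrophil markers 9 could be tested and 4 rose. Some passed the 1 FPKM filter only through carcinogen-treated livers, such as Ngp (0.07 and 0 FPKM in control livers) and Pglyrp1 (0 in both), so no median is given. S100a8, a calcium-binding protein of neutrophil granules, had 43.7 and 131 FPKM in DWYG-M livers, 47.7 and 53.2 in DWYG-H, 103 and 29.2 in model, and 7.18 and 4.07 in control livers. The call (3.70, SE 0.77, adjusted p = 0.0357) was lost without DWYG-M replicate 2, either control or either DWYG-H library, at up to 0.213. In 8 of the 9 markers DWYG-M replicate 2 was above replicate 1, whereas replicate 1 was farther from the control mean in 73.7% of all genes called higher. The S100a8 ranges of the DWYG-M, DWYG-H and model livers overlapped. Of 5 B and plasma cell markers tested 1 rose, the joining chain Jchain (1.89, adjusted p = 0.0418, up to 0.13), and edgeR called none of 10 MHC class II genes (0 at an unadjusted p under 0.05) or of 23 endothelial markers (4 at an unadjusted p under 0.05). DESeq2 called 0 of either list. With limma on log2(TPM + 1), 1 MHC class II gene and 10 endothelial markers were called higher, as were 2767 of all 11606 genes tested. The endothelial median was 0.28 by edgeR and 0.66 on TPM, where the median of all genes was 0.40.

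Lcn2, an iron-chelator-binding protein that injured hepatocytes secrete, had 453 and 286 FPKM in DWYG-M livers, 959 and 446 in DWYG-H, 1329 and 1574 in model, and 4.62 and 2.52 in control livers, and rose by 6.47 (SE 0.53, adjusted p = 0.00254), keeping its call. It was 1 of 6 acute phase genes of 27 that rose (median 0.28). The metallothionein Mt1 had 285 and 97.9 FPKM in DWYG-M livers against 9.44 and 7.47 in control livers (4.27, adjusted p = 0.0268, up to 0.177). Saa1, a classical acute phase protein, was not called (0.29, adjusted p = 0.91), at 122 and 88.5 FPKM in DWYG-M livers, 337 and 969 in DWYG-H, 2917 and 162 in model, and 96.8 and 50.7 in control livers. Of 28 interferon response genes 6 rose (median 0.51), such as Ifi44 (1.54, adjusted p = 0.0165) and Cmpk2 (1.02, adjusted p = 0.0233), and of 18 chemokines and cytokines 3 rose, Cxcl1 (2.43), Cxcl14 (2.38) and Ccl9 (0.83), at adjusted p of 0.0231 to 0.0416, which reached 0.136, 0.161 and 0.278 with 1 library left out. Without DWYG-M replicate 1 or either control library none of the interferon genes was called, and Ifi44 and Cmpk2 reached an adjusted p of 0.125 and 0.144.

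Of 35 cell cycle genes tested 7 rose and none fell. All 35 had a log2 fold change above 0, with a median of 1.87. Rrm2, a subunit of ribonucleotide reductase, had 9.33 and 4.51 FPKM in DWYG-M livers, 10.04 and 6.46 in DWYG-H, 11.9 and 9.98 in model, and 1.25 and 1.59 in control livers (2.07, SE 0.39, adjusted p = 0.026). Cdk1, the mitotic kinase, had 2.57 and 1.33 FPKM in DWYG-M livers, 3.20 and 1.59 in DWYG-H, 4.67 and 3.88 in model, and 0.4 and 0.23 in control livers (2.43, adjusted p = 0.0286). In 32 of the 35 genes DWYG-M replicate 1 was above replicate 2, and with replicate 1 or either control left out none was called. Among all genes called higher, DWYG-M replicate 1 was farther from the control mean than replicate 2 in 73.7%. Of 23 p53 target genes 6 rose, among them Phlda3 (3.51), Psrc1 (4.94), Eda2r (3.32) and Btg2 (2.56), at adjusted p of 0.0118 to 0.0163. Cdkn1a, the p53-induced cell cycle inhibitor p21, had 57.3 and 8.33 FPKM in DWYG-M livers, 59.3 and 27.5 in DWYG-H, 69.4 and 42.6 in model, and 2.16 and 1.34 in control livers (4.02, adjusted p = 0.0425, up to 0.246). No p53 target was called without a control library, and 2 were without DWYG-M replicate 1.

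Among NRF2 antioxidant targets 7 of 29 rose and 1 fell (median 0.60). Gsta1, a glutathione transferase, had 55.3 and 29.3 FPKM in DWYG-M livers, 36.5 and 43.3 in DWYG-H, 165 and 92.4 in model, and 2.10 and 0.81 in control livers, and rose by 4.61 (SE 0.46, adjusted p = 0.00438), keeping its call. Gstm3 had 365 and 348 FPKM in DWYG-M livers, 136 and 422 in DWYG-H, 539 and 302 in model, and 32.5 and 25.5 in control livers (3.41, adjusted p = 0.0114). The quinone reductase Nqo1 rose by 1.65 (adjusted p = 0.00982) and the carbonyl reductase Cbr3 by 3.77 (adjusted p = 0.0119). Without a control library Gsta1 alone of the list was called, and Gstm3, Nqo1 and Cbr3 reached adjusted p of 0.093 to 0.111. Of 19 immediate early genes 3 rose, Egr1 (2.56), Junb (1.10) and Ier3 (2.12), at adjusted p of 0.0245 to 0.0438, each lost without DWYG-M replicate 1 or either control.

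Duct markers rose in part. Of 18 cholangiocyte and ductular markers 4 rose (median 1.14). Spp1, osteopontin, which both duct cells and macrophages make, had 212 and 175 FPKM in DWYG-M livers, 229 and 268 in DWYG-H, 293 and 430.4 in model, and 38.4 and 33.7 in control livers (2.21, adjusted p = 0.00537, up to 0.0748 without a control library). Bicc1, an RNA-binding protein of duct cells, had 4.18 and 3.37 FPKM in DWYG-M livers against 0.53 and 0.54 in control livers, rose by 2.62 (SE 0.25, adjusted p = 0.00382) and kept its call. Ehf had 0.96 and 0.8 FPKM in DWYG-M livers against 0.24 and 0.23 in control livers (1.68, adjusted p = 0.0121). It passed the 1 FPKM filter only through model livers. Pkhd1 had 1.11 and 0.8 FPKM in DWYG-M livers against 0.4 and 0.38 in control livers (1.10, adjusted p = 0.0244). The calls of Ehf and Pkhd1 were lost without DWYG-M replicate 1 or either control library. The summed TPM of the defining markers Krt19, Krt7, Epcam, Sox9 and Cftr was 9.69 and 12.1 in DWYG-M livers, 7.59 and 13.1 in DWYG-H, 36.6 and 37.0 in model, and 3.31 and 5.37 in control livers, and none of the 4 of them tested was called.

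Across all genes tested 4.35% were called higher and 0.603% lower, the shares beside which the hepatocyte and metabolic lists below are read. Of 36 hepatocyte secreted and identity genes 1 rose and 1 fell (median -0.07). G6pc, the glucose-releasing phosphatase, had 298 and 157 FPKM in DWYG-M livers, 236 and 239 in DWYG-H, 167 and 95 in model, and 56.2 and 69.2 in control livers (1.64, adjusted p = 0.0359, up to 0.21). Foxa1, a hepatocyte transcription factor, had 3.59 and 4.28 FPKM in DWYG-M livers, 3.40 and 4.50 in DWYG-H, 5.55 and 4.94 in model, and 7.36 and 6.42 in control livers (-0.88, adjusted p = 0.0233, up to 0.179). Both calls were lost without DWYG-M replicate 1 or either control. Albumin (Alb) had 54296 and 35882 FPKM in DWYG-M livers against 38637 and 29953 in control livers, with groups that overlapped and a fold change of 0.19 (adjusted p = 0.862), which was -0.14 without DWYG-M replicate 1.

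In bile acid synthesis and transport 1 of 28 genes rose and 3 fell. Cyp7b1, the oxysterol hydroxylase of the alternative pathway, had 40.0 and 116 FPKM in DWYG-M livers, 34.9 and 43.5 in DWYG-H, 20.8 and 11.8 in model, and 259.6 and 375 in control livers (-2.25, SE 0.49, adjusted p = 0.041). Cyp8b1, the sterol hydroxylase that makes cholic acid, had 27.8 and 74.0 FPKM in DWYG-M livers, 92.9 and 106 in DWYG-H, 36.1 and 22.8 in model, and 133 and 224 in control livers (-2.04, adjusted p = 0.0483). The efflux pump Abcb1a rose by 2.83 (adjusted p = 0.00979, up to 0.1 without a control library), and Cyp7a1, the rate-limiting enzyme of the classical pathway, was not called (0.13). Cyp7b1 and Cyp8b1 lost their calls without DWYG-M replicate 1, either control or either DWYG-H library, at up to 0.229.

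Of 51 cytochrome P450 and phase II genes 2 rose, the oestrogen sulfotransferase Sult1e1 and Cyp2c55 (2.36, adjusted p = 0.0156), and Cyp2c67 fell (-1.21, adjusted p = 0.026). Sult1e1 had 2.29 and 3.92 FPKM in DWYG-M livers against 0.06 in both control livers, a ratio of 44.2 with a counting interval of 11.9 to 369. These 3 calls were lost without either control, at up to 0.16. In lipogenesis and lipid storage 4 of 29 rose, Scd2 (4.57, adjusted p = 0.00464), Lpl (1.97), Cd36 (1.44) and Pnpla3 (3.44). With 1 library left out the adjusted p reached 0.111 for Lpl, 0.161 for Cd36 and 0.169 for Pnpla3. Scd2, a desaturase scarce in healthy adult liver, had 51.3 and 29.0 FPKM in DWYG-M livers, 60.0 and 49.0 in DWYG-H, 44.5 and 82.2 in model, and 1.91 and 1.02 in control livers, and without control replicate 2 its adjusted p was 0.0597.

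Of 25 glycolysis genes tested 1 rose by edgeR and none fell (median 0.22). It was Pfkp (1.86, SE 0.28, adjusted p = 0.0124), whose call was not kept. The respiratory chain, fatty acid oxidation and cholesterol synthesis lists gave no calls with edgeR. None of 39 nuclear-encoded respiratory chain genes passed (3 at an unadjusted p under 0.05, 0 with DESeq2), though 38 of 39 had a fold change below 0 (median -0.28, range -0.54 to 0.06), and on TPM their median was 0.20. None of 34 fatty acid oxidation genes passed (median -0.35, 0.12 on TPM), with 9 at an unadjusted p under 0.05 and 1 higher and 3 lower with DESeq2. None of 25 cholesterol synthesis genes passed (median -0.50, 0.03 on TPM), with 4 at an unadjusted p under 0.05 and 2 lower with DESeq2. The direction of these 3 lists thus depended on the scale. Of 30 pericentral genes 1 rose and none fell by edgeR (median -0.41, 0.01 on TPM), while DESeq2 called 1 higher and 6 lower and edgeR called 4 lower without either model library. Of 26 periportal genes 1 rose and 1 fell (median -0.12, 0.31 on TPM).

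**Figure D4:**
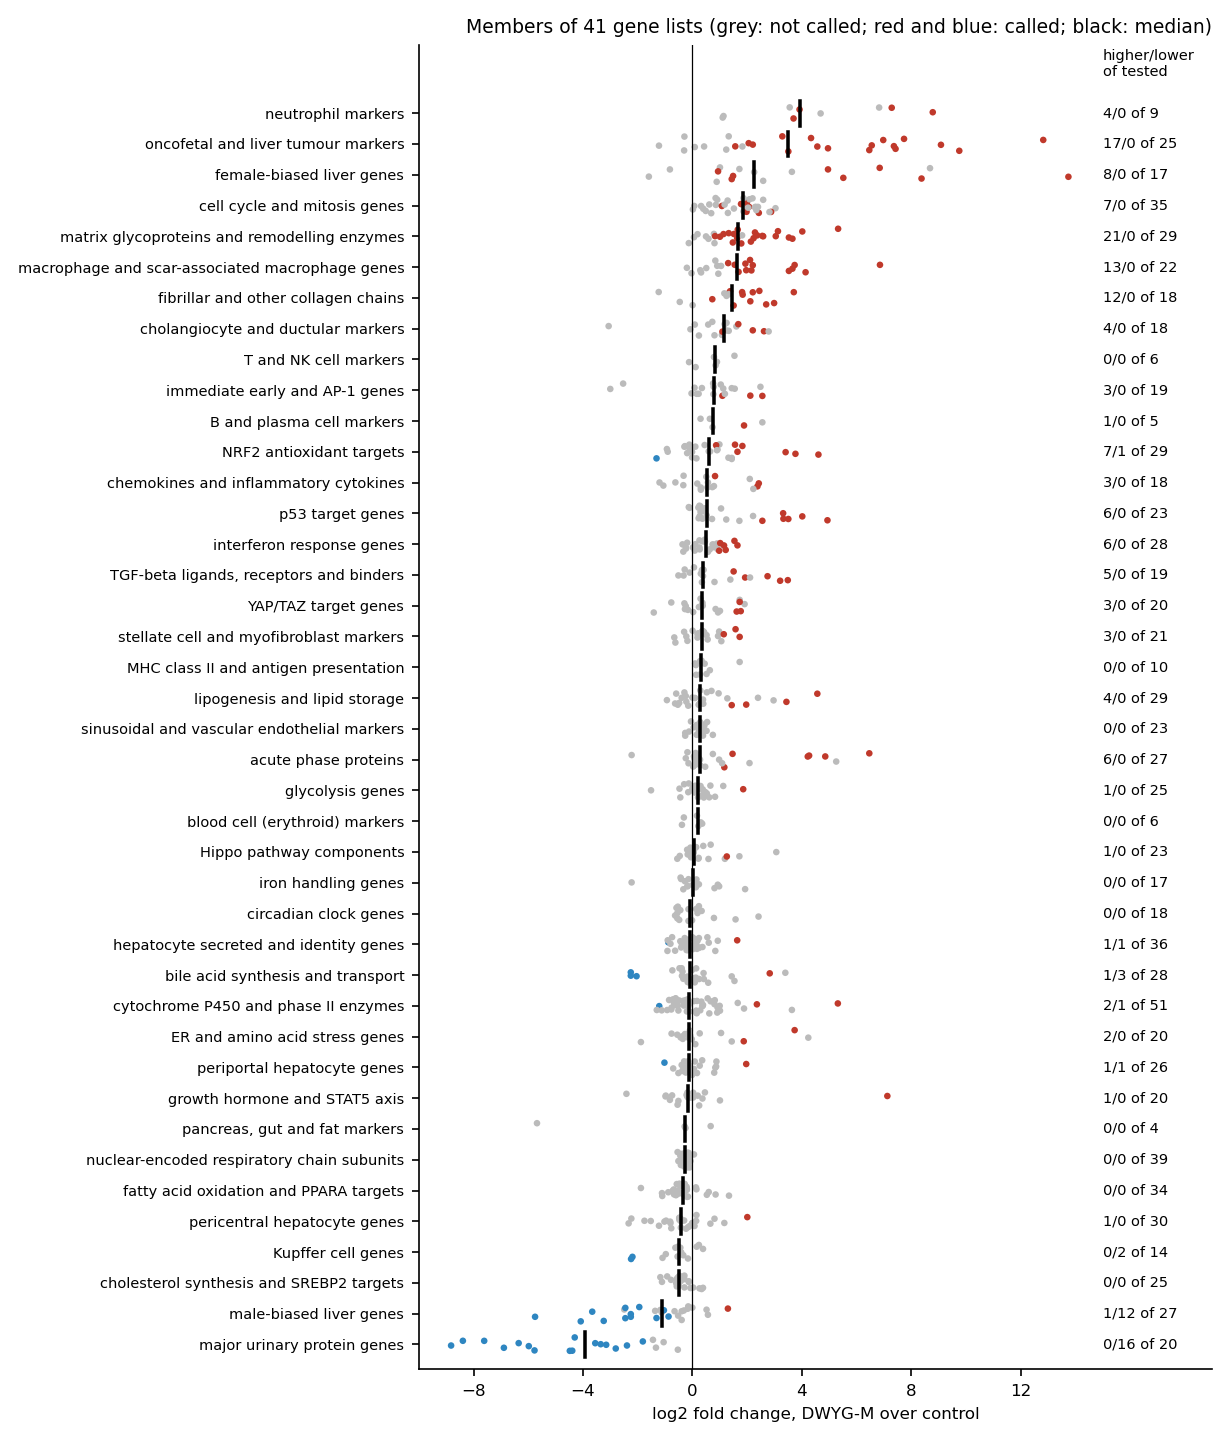
Log2 fold change of DWYG-M over control for the tested members of 41 gene lists (1 row a list, ordered by median); red and blue points passed the test, grey points did not, black bars are list medians and the numbers at the right count members called higher and lower. The tumour marker list has a median of 3.51 near the top, and the major urinary protein genes lie at the bottom with -3.92.

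DWYG-M was also set against the other carcinogen-treated groups, as a test of whether its distance from control differs from theirs. Against model liver 1 gene passed, Hsd3b5 (0.00862% of genes tested), with a log2 fold change of 4.50 (SE 0.31) and an adjusted p of 0.0065, and 1468 genes had an unadjusted p under 0.05. Its call was lost under the replicate block and in the fit of those groups alone, and DESeq2 called 72 higher and 134 lower genes. The next smallest adjusted p, 0.167, was shared by Cyp4a12a, a male-biased fatty acid hydroxylase (1.48), the surface sialoglycoprotein Cd24a (-1.27) and Sprr1a, a cornified envelope precursor (-2.45). Cyp4a12a had 103 and 80.3 FPKM in DWYG-M livers, 33.1 and 36.1 in DWYG-H, 33.9 and 34.1 in model, and 147 and 140.4 in control livers. Against DWYG-H liver no gene passed edgeR (0%), with 193 genes at an unadjusted p under 0.05 and 5 called by DESeq2.

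List medians of DWYG-M against model, given side by side with those against control and with no test of their own, were mostly opposite in sign. They were -0.76 against 3.51 for tumour markers, -0.87 against 1.66 for matrix enzymes, -0.85 against 1.45 for collagens, -1.09 against 1.87 for cell cycle genes and -1.27 against 1.14 for duct markers. For Mup genes they were 1.44 against -3.92, and for male-biased genes 1.14 against -1.12. Female-biased genes had -0.55 against 2.26, although the median over members of level above control was higher in both DWYG-M libraries than in both model libraries. Both contrasts use the same DWYG-M libraries, and in each of these lists apart from the Hsd3b5 call no member passed against model.

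**Figure D5:**
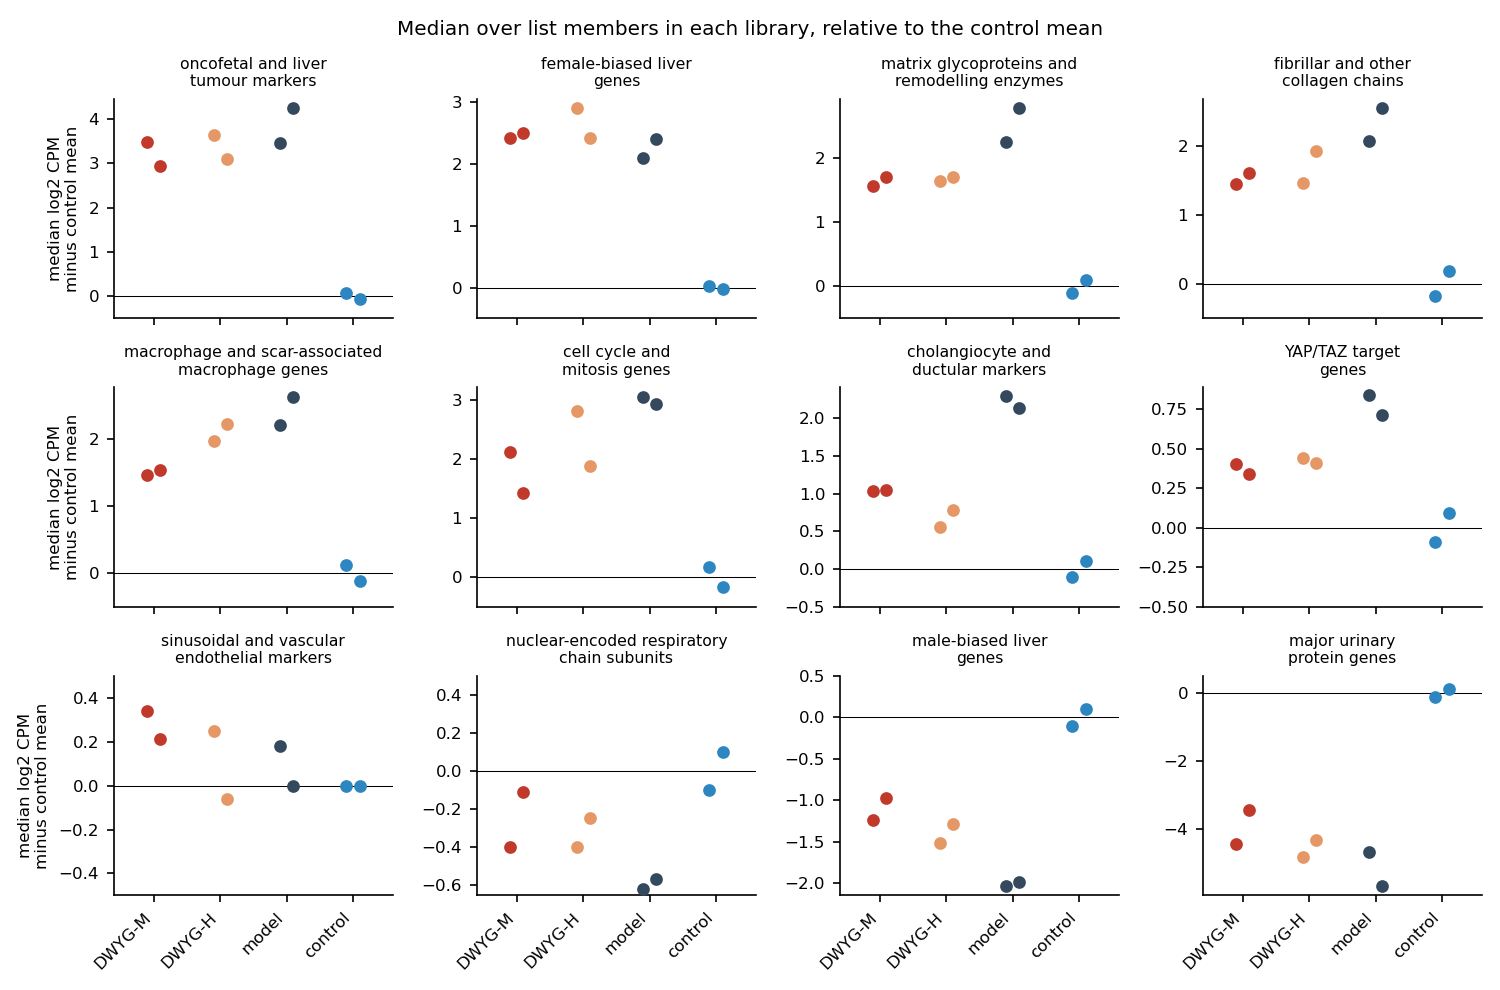
Median over list members of log2 CPM (counts scaled to library size) minus the control mean, for 12 gene lists in each of the 8 libraries (2 points a group, in the order DWYG-M, DWYG-H, model, control). DWYG-M points lie between model and control in the matrix, collagen, macrophage, cell cycle, duct, YAP/TAZ target, male-biased, major urinary protein and respiratory chain lists. In the female-biased list the DWYG-M points (2.43 and 2.50) lie above the model points (2.10 and 2.41).

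The 31 genes that kept their call in all 8 fits were singled out after their values were seen. They hold 8 Mup genes and the pseudogene Mup-ps16, and 10 of the 31 are on no list. H2-Q1, a non-classical MHC class I gene, had 16.9 and 19.2 FPKM in DWYG-M livers, 19 and 16.5 in DWYG-H, 17.1 and 14.6 in model, and 2.47 and 2.61 in control livers (2.74, SE 0.17, adjusted p = 0.00128). Tceal8 had 19.4 and 18.1 FPKM in DWYG-M livers, 19.5 and 18.5 in DWYG-H, 19.1 and 21.6 in model, and 4.60 and 4.24 in control livers (1.87, SE 0.17, adjusted p = 0.00375). Both genes were nearly level over the 6 carcinogen-treated livers, all of which lay above both control livers. Plat, the tissue plasminogen activator, had 3.22 and 2.55 FPKM in DWYG-M livers, 2.44 and 2.63 in DWYG-H, 6.77 and 7.63 in model, and 0.23 and 0.16 in control livers (3.70, SE 0.30, adjusted p = 0.00254). Emp1, a membrane protein, rose by 2.49, Cd34, a sialomucin of vessels and progenitors, by 2.55, and Gask1a by 2.56. Fitm1, a lipid droplet protein, had 1.32 and 2.56 FPKM in DWYG-M livers, 1.39 and 0.82 in DWYG-H, 1.60 and 2.38 in model, and 25.7 and 30.9 in control livers, and fell by 4.09 (SE 0.40, adjusted p = 0.00438). Nxpe2 fell by 2.63 (SE 0.27), and Sprr1a had 3.70 and 2.76 FPKM in DWYG-M livers, 4.26 and 4.27 in DWYG-H, 18.4 and 17.9 in model, and 0 in both control livers.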

How the data were processed

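RNA of 8 mouse livers, 2 a group, was sequenced from libraries made with a SMART-Seq mRNA kit. The authors deposited estimated counts (expected counts), FPKM and TPM per gene and library in 1 table, per the file headers. Per the submitters' processing notes the genome build was GRCm39. Which aligner, counter, annotation and strand setting made them is not given in the sources used here. The table's 24 other numeric columns were not used. The genes compared and the gene lists were chosen with earlier results of these data known.

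Genes with at least 1 FPKM in at least 2 of 8 libraries were tested. Expected counts were rounded, TMM-scaled and fitted in 1 model of 4 groups with edgeR 4.0.16 (quasi-likelihood test, R 4.3.3), and p-values were adjusted over all 11606 genes by Benjamini-Hochberg at 0.05. The standard error (SE) of a log2 fold change comes from that fit. Alternatives were DESeq2 1.42.0, limma 3.58.1 on log2 of TPM or FPKM plus a pseudocount, other scalings and filters, the 2 groups alone, a replicate block, and leaving out each library. Leaving out model and DWYG-H libraries was added after seeing the data. Depth was 17345627 to 19191382 counts a library; 95% intervals of count ratios (exact) cover counting error only, and where control had 0 counts a floor of 3 counts over the group was used.

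Named genes were up to 12 called genes a direction with the largest change among those without overlap and with a mean of at least 5 FPKM in a group, the 3 marker genes, per list the 4 genes of lowest p, up to 6 genes a direction against model, the 4 largest gains and losses of TPM, and Yap1, Wwtr1, Ccn1, Ccn2, Afp and Hsd3b5. Other genes are named as list members without a call, or were chosen after their values were seen. Promoter windows come from RefSeq (GRCm38.p6), matched by gene ID, with 11926 windows for 9325 of the 11606 tested genes. Scripts were tested on simulated data.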

Additional observations from a re-analysis of the deposited data

Results flagged for a closer look

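Hsd3b5 differed between DWYG-M and model livers when each was set against control, by a test of the difference itself. It had 12.2 and 16 FPKM in DWYG-M livers, 0.86 and 0.45 in model livers, and 241 and 171 in control livers. The difference was 4.50 on the log2 scale (SE 0.31, edgeR adjusted p = 0.0065), with both DWYG-M livers above both model livers. Among all genes tested it was the only one with an adjusted p under 0.05 in that test by edgeR. The call was lost under the replicate block and in the fit of the DWYG-M and model libraries alone.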

How the results depend on the processing

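With 2 livers a group, the count of DWYG-M against control calls (575) ran between 39 and 844 over the 8 fits with 1 library left out. It was 1007 with DESeq2 (845 higher, 162 lower), 2820 with limma on log2(TPM + 1) (98.1% higher), 1069 on log2(FPKM + 0.1), 730 on log2(FPKM + 1), 299 with a filter at 5 FPKM, 782 without a filter and 658 with the 2 groups alone. RLE scaling gave 569, and TMM without Alb and Mup genes 577. The replicate block gave 507 calls (441 higher, 66 lower), of which 435 were among the 575; same-numbered DWYG-M and control libraries correlated at 0.07 in their deviations from group means, so the numbers were not taken as pairs. Against model, DESeq2 called 206 genes, limma 2 on TPM or FPKM + 1 and 3 on FPKM + 0.1, the replicate block 0, and fits with 1 library left out 1 to 29. Against DWYG-H, DESeq2 called 5, and fits with 1 library left out 0 to 2. The cause of these changes was not tested. Of 112 named called genes, none changed sign, 111 were called by DESeq2 and 97 under the block, and 25 without control replicate 2. Among genes without a call, the log2 fold change turned to 0.02 (Ndufs7), 0.03 (Per2), 0.08 (Alas2), 0.17 (Bpgm), 0.21 (Fabp2), 0.19 (Lgals4) and 0.28 (Yap1) on TPM, to 0.04 (Yap1) on FPKM with either pseudocount and 0.01 (Lgals4) on FPKM + 0.1. With 1 library left out it ranged from -0.87 to 0.02 (Per2), -0.78 to 0.45 (Lgals4), -2.12 to 0.02 (Ccn1) and -0.19 to 2.76 (Hamp2), and was lowest for Alb at -0.14. Low control counts limit the size of the largest gains.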
